A study of Canis lupus familiaris with 48 samples.

Results

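The comparison described here sets MDCK I cells kept for 24 h in medium with 200 mOsm of added raffinose (500 mOsm in all) against the same cells in regular medium (control, 300 mOsm). It takes in 24 of the 48 RNA sequencing libraries of the study, which are all libraries titled with raffinose or control and a passage number, 12 in each group. The other libraries are of cells given 200 mOsm of NaCl or urea, and they enter where raffinose is set beside another solute. MDCK I is an established epithelial line from dog kidney. All groups grew for 144 h in all in the same serum-containing medium in uncoated wells, and only the last 24 h differed. The replicates are 12 passages of this line, numbered from 1 to 19, with 1 library of each passage in each group. Nothing in the labels says if wells of 1 passage were seeded from 1 flask, and p-values measure the spread between these passages of a single line.

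Raffinose is a trisaccharide that does not readily cross cell membranes. Added to the medium it draws water out of the cells, which shrink and then recover volume by taking up ions and, over hours, small organic osmolytes. In kidney cells the transcription factor NFAT5, also called TonEBP, is known to raise the genes for osmolyte transporters, for the enzyme that makes sorbitol and for chaperones of the heat shock family. NaCl acts in the same way as a solute that stays outside, whereas urea enters cells. The 32704 genes of the deposited table carry Ensembl identifiers that the files used here do not pair with symbols, and 0 were matched to one. The genes of that pathway, transporters and markers of the kidney epithelium were therefore not followed by name, and the labelled cell type was not checked against markers. Genes are described by position on the dog build CanFam3.1, by structure and by level.

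Counted reads per library ran from 6.08 M to 16.06 M (M, 1000000 reads) in control and from 6.6 M to 16.16 M after raffinose, with medians of 10.24 M and 10.12 M. Totals did not pass the test between groups (exact two-sided permutation test on same-passage pairs, p = 0.61, higher after raffinose in 7 of 12 pairs). Levels are counts per 1000000 counted reads (CPM) after TMM scaling, which multiplies each library's total by a factor, so they are relative levels and differ somewhat from plain shares of a library. Percentages of counts are plain shares, without TMM. In bulk RNA of this kind, a change in the number of cells and a change in the RNA of each cell cannot be told apart.

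Raffinose changed most of the genes that could be tested. Of 12654 tested genes 9482 passed (74.9%) by edgeR's quasi-likelihood test at an adjusted p under 0.05, 4648 of them higher (36.7%) and 4834 lower (38.2%). Many changes were small: 4125 of the called genes (43.5%) moved by less than 1.5-fold, and the median absolute log2 fold change of the called genes was 0.66. With TMM scaling the large changes were more often upward. At 2-fold or more 1532 genes rose (12.1%) and 1282 fell (10.1%), at 4-fold 555 rose and 259 fell, at 8-fold 247 and 54, at 16-fold 125 and 14, and at 64-fold 30 and 3. Scaled by library totals only, without TMM, 3284 genes were higher and 6550 lower, so that higher genes made up 33.4% of the calls, against 49% with TMM. That scaling put the median log2 fold change of all tested genes at -0.25 in place of -0.02, and at 2-fold or more 1150 genes then rose and 1954 fell.

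**Figure D1:**
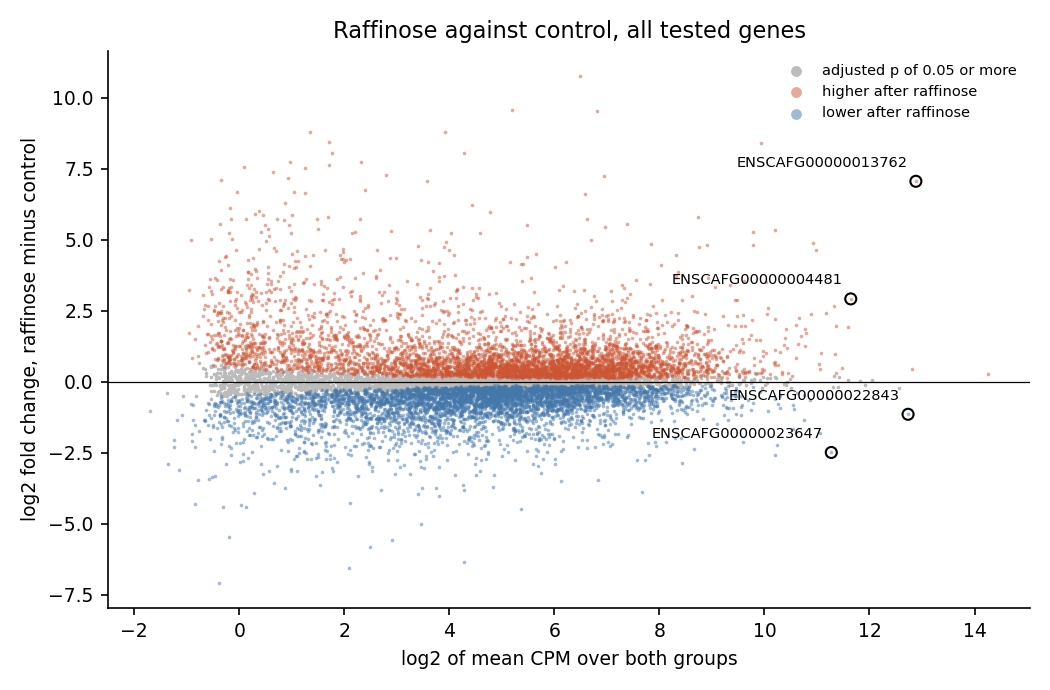
Each point is 1 of the 12654 tested genes, with the log2 of its mean CPM over both groups on the horizontal axis and its log2 fold change, raffinose minus control, on the vertical axis; colours mark genes that passed at an adjusted p under 0.05. With TMM scaling the upper edge of the cloud reaches further from 0 than the lower edge, with 125 genes higher and 14 lower by at least 16-fold. The 4 genes with the largest rises and falls in CPM are circled.

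The direction of change was shared by the passages. In 6349 called genes (67%) all 12 same-passage differences had the same sign, 3175 higher and 3174 lower, and in 8917 (94%) at least 10 of the 12 did. The genes were called from these same libraries, so agreement in sign among them is partly built into the choice. Among the genes changed by at least 2-fold, 1403 of the 1532 that rose and 1184 of the 1282 that fell did so in all 12 passages. The 12 raffinose values lay wholly above the 12 control values in 1814 genes (14.3%) and wholly below them in 1630 (12.9%).

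The largest rise in mean CPM was in ENSCAFG00000013762 (chromosome 7, 19668011 to 19674918, minus strand, 10 exon blocks, 3674 exonic bases). Control libraries had from 50.7 to 203 CPM with a median of 103, and raffinose libraries from 6441 to 23016 CPM with a median of 16131. The groups were far apart, and the lowest raffinose library was that of passage 5 while the highest was that of passage 19. The mean went from 112 ± 46.5 to 15004 ± 4993 CPM (SD, n = 12), and this 1 gene held 1.38 ± 0.458% of all counts after raffinose (0.621 to 2.14%). Its log2 fold change was 7.06 ± 0.27 (SE, edgeR adjusted p = 5.18e-29), or 133-fold. NaCl raised it less, to 8832 ± 2938 CPM, and urea libraries had 183 ± 56.7 CPM.

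ENSCAFG00000004481 (chromosome 20, 4531730 to 4616854, plus strand, 15 exon blocks, 6525 exonic bases) had the next largest rise. It was already abundant in control, at 597 to 937 CPM with a median of 727, and had 3678 to 9814 CPM with a median of 5105 after raffinose. The groups did not overlap, and the library of passage 17 was the highest in both. Its log2 fold change was 2.92 ± 0.13 (edgeR adjusted p = 5.07e-26). Urea left its level at 769 ± 123 CPM, a log2 fold change of 0.04 ± 0.12 that did not pass (adjusted p = 0.81), beside 748 ± 102 CPM in control.

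The largest fall in mean CPM was in ENSCAFG00000022843, a gene of 1 exon and 95 bases on chromosome 18 (46206389 to 46206483, minus strand). Control libraries had 4631 to 14620 CPM with a median of 9671, and raffinose libraries 1820 to 7535 CPM with a median of 4629. The groups overlapped, but every passage had less after raffinose, with same-passage log2 differences between -1.71 and -0.55. The log2 fold change was -1.15 ± 0.20 (edgeR adjusted p = 1.31e-06). NaCl and urea lowered the gene too, to 5118 ± 1603 and 5705 ± 1771 CPM. Their log2 fold changes were -0.88 ± 0.20 and -0.72 ± 0.20 (edgeR adjusted p = 0.000121 and 0.00203). Raffinose differed from NaCl by -0.27 ± 0.20, which did not pass (edgeR adjusted p = 0.38), and from urea by -0.43 ± 0.20 (adjusted p = 0.0466). That fit had no term for passage, and the level was lower after raffinose than after NaCl in 12 of 12 passages. Both other annotated genes within 1 kb, of 71 and 69 bases, fell alongside it after raffinose. They went from 1447 ± 464 to 705 ± 283 CPM and from 1151 ± 383 to 572 ± 211 CPM, each in 12 of 12 passages. How well libraries of polyadenylated RNA measure genes this short was not tested.

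ENSCAFG00000023647 (chromosome 9, 21240778 to 21245039, plus strand, 6 exon blocks, 1547 exonic bases) had the next largest fall. Control libraries had 3468 to 5945 CPM with a median of 3884, and raffinose libraries 554 to 1082 CPM with a median of 715. The groups were well apart, and the log2 fold change was -2.49 ± 0.11 (edgeR adjusted p = 6.23e-26). After urea the gene had 3479 ± 690 CPM, nearer to the control mean of 4203 ± 715 than to the raffinose mean of 747 ± 160.

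**Figure D2:**
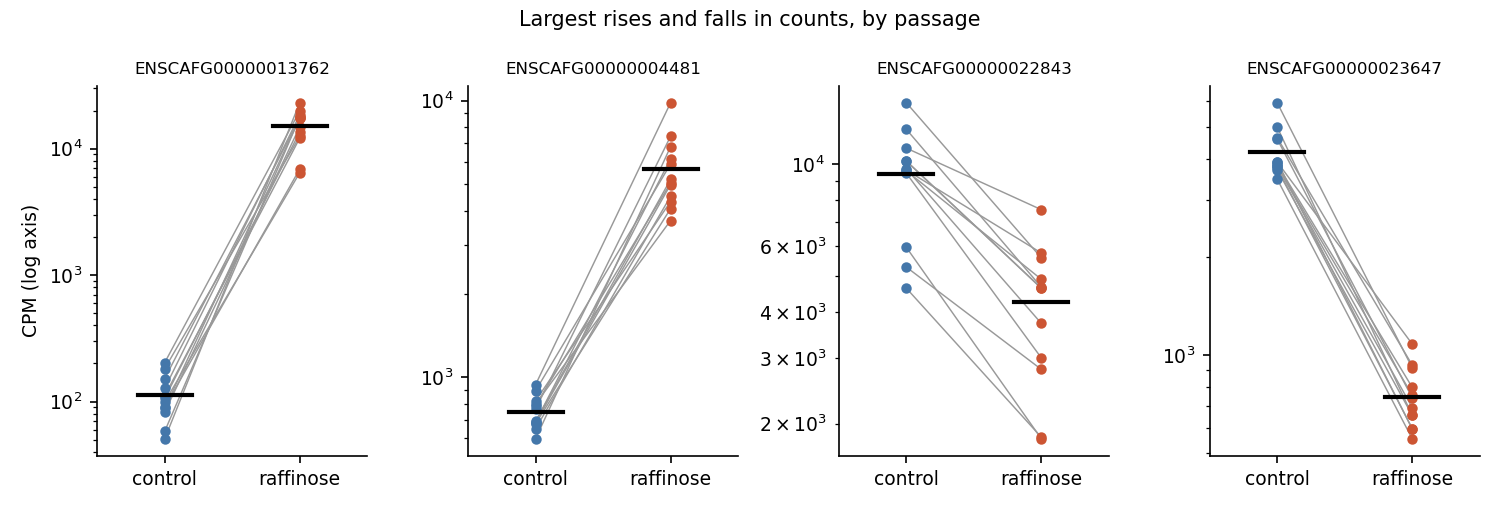
CPM on a log axis in the 12 control and the 12 raffinose libraries for the genes with the 2 largest rises and the 2 largest falls in mean CPM; grey lines join libraries of the same passage and black bars are means. All 12 lines run up for the first 2 genes and down for the other 2, and only ENSCAFG00000022843 has groups that overlap.

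Reads moved to fewer genes after raffinose. The 100 most abundant genes of a library held 19.46 ± 0.796% of counts in control and 22.66 ± 1.02% after raffinose, higher in 12 of 12 pairs (exact two-sided permutation test on same-passage pairs, p = 0.000488, the smallest this design can give, adjusted over 7 measures p = 0.00171). The effective number of genes, which is the exponential of the Shannon entropy of the counts and falls when fewer genes hold the reads, went from 4052 ± 114 to 3404 ± 169, lower in 12 of 12 pairs (exact p = 0.000488, adjusted p = 0.00171). These values were 3627 after NaCl and 3890 after urea. The 10 most abundant genes alone held 6.76 ± 0.537% in control and 7.42 ± 0.675% after raffinose, higher in 9 of 12 pairs (exact p = 0.0107, adjusted p = 0.0188). That gain was smaller than the gain of ENSCAFG00000013762 by itself, from 0.0122 ± 0.00502% to 1.38 ± 0.458% of counts. Genes of 1 exon held less, 7.57 ± 0.60% against 6.58 ± 0.547%, lower in all pairs but 1 (exact p = 0.000977, adjusted p = 0.00228). Much of that fall lay in ENSCAFG00000022843, which has 1 exon and went from 1.02 ± 0.32% to 0.395 ± 0.163% of counts. The 872 tested genes of 1 exon block had a median log2 fold change of -0.06, beside -0.02 for all tested genes. The mitochondrial share did not pass, at 5.01 ± 0.59% and 4.77 ± 0.712% (exact p = 0.212, adjusted p = 0.247).

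**Figure D3:**
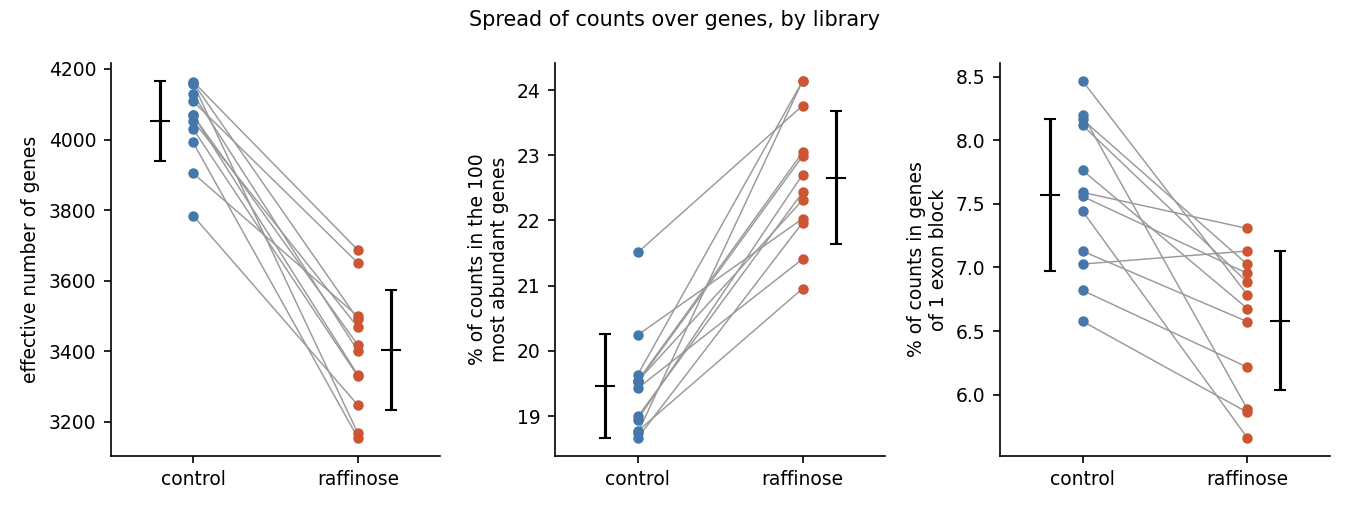
Effective number of genes, percent of counts in the 100 most abundant genes and percent of counts in genes of 1 exon block, for the 12 control and 12 raffinose libraries; grey lines join libraries of the same passage, and the bars beside the points are the mean ± SD. Every line falls in the first panel and rises in the second, and 11 of 12 fall in the third, since 1 pair was higher after raffinose.

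The number of genes above a level depended on that level. Here CPM was scaled by library totals only. Genes with at least 1 CPM numbered 12042 ± 102 in control and 12123 ± 132 after raffinose, 81.42 more on average and higher in 10 of 12 pairs (exact p = 0.0215, adjusted p = 0.0301). Genes with at least 5 CPM numbered 10186 ± 64.1 and 9848 ± 119, a difference of -337.2 and lower in 12 of 12 pairs (exact p = 0.000488, not among the 7 measures adjusted together).

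The gain was spread over fewer genes than the loss. In shares of all counted reads, without TMM, the rises summed over tested genes came to 22.1% of a library and the falls to the same. The largest single rise gave 6.19% of all gain, the 10 largest 18.6% and the 100 largest 49.2%, and 105 genes made up the first 50% of it. The 10 largest falls gave 11.1% of all loss and the 100 largest 29.6%, and 428 genes made up the first 50%. The 555 genes that rose by at least 4-fold held 1.35 ± 0.0672% of counts in control, between 1.23 and 1.44%, and 9.86 ± 0.974% after raffinose, between 8.29 and 11.3%. The same genes held 8.19 ± 0.749% after NaCl and 1.47 ± 0.0507% after urea. The 1282 genes that fell by at least 2-fold went from 9.65 ± 0.721% to 2.88 ± 0.376%. These genes were chosen by the comparison itself, so their shares describe the size of the change and do not test it.

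Genes near silence in 1 of the conditions were few. In 33 called genes the mean went from under 0.5 CPM in control to at least 5 CPM after raffinose, and in 6 it went from at least 5 CPM to under 0.5 CPM. In all of these genes the groups did not overlap, which the choice of genes makes likely. The 33 genes lay on 21 chromosomes or scaffolds, had a median of 3 exon blocks and a median span of 8.63 kb, and 4 had a single exon. Their summed level was between 4.69 and 11.8 CPM in the control libraries and between 580 and 970 CPM in the raffinose libraries, lowest at passage 16 and highest at passage 17. After NaCl 18 of the 33 reached 5 CPM, and after urea 0 did. The 6 genes that were nearly lost were larger, with a median of 13.5 exon blocks and a median span of 55.8 kb, and had a median of 9.75 CPM in control, 0.365 after raffinose, 0.58 after NaCl and 3.24 after urea.

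Taken over the genes as a set, the response had a similar size in every passage. For the 10179 genes that averaged 5 CPM or more in the 24 libraries, the log2 differences of each passage were set against the mean differences of the other 11 passages. The slopes ran from 0.91 at passage 5 to 1.089 at passage 11, and the correlations across genes from 0.93 to 0.967. Genes are not independent replicates, and these values carry no test. Of the called genes among these, between 93.3% (passage 13) and 98.2% (passage 11) moved in the common direction in a single passage. Each passage was also used to call these genes, which favours that agreement. Passage 5 had 903 genes higher and 812 lower by at least 2-fold, and passage 11 had 1117 and 1175. Passage 5 was also the lowest library for ENSCAFG00000013762 after raffinose, at 6441 CPM, and after NaCl, at 2833 CPM. A single gene could vary more: the same-passage log2 difference of ENSCAFG00000013762 ran from 6.02 at passage 5 to 8.82 at passage 19.

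No gene passed for a response that changes with passage number (0%). The term compared the slope on passage after raffinose with that in control, and 0 of 12654 genes passed in edgeR, with the lowest adjusted p at 0.499 and 705 genes at an unadjusted p under 0.05. With limma on the 12 same-passage differences, 0 passed as well, with 1067 at an unadjusted p under 0.05 and the lowest adjusted p at 0.195. In simulated data with these groups and passages 78.5% of genes with a slope difference of 1 log2 unit per 10 passages were recovered. The simulation used the spread of the control libraries and drew libraries independently. The data had a larger spread after raffinose and deviations shared by passage, so that percentage may not hold for them. The median absolute slope difference in the data was 0.13, and smaller trends than those simulated may have been missed.

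Raffinose libraries were more spread than control libraries, a description with no test. The SD of log2 CPM over the 12 libraries had a median of 0.225 in control and 0.265 after raffinose over all tested genes, beside 0.226 after NaCl and 0.24 after urea, and it was higher after raffinose than in control in 64.4% of genes.  The median distance of a library from its group's mean was between 0.115 (passage 7) and 0.198 (passage 19) log2 units after raffinose and between 0.09 (passage 4) and 0.203 (passage 10) in control. Libraries of the same passage deviated together. The SD of the same-passage differences had a median of 0.28, where independent libraries with these SDs would give 0.352, and it lay below the value for independent libraries in 83.9% of genes.

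Longer genes moved upward relative to shorter ones. Among the 778 tested genes with up to 500 exonic bases 21.6% were higher and 45.4% lower, with a median log2 fold change of -0.27, and among the 356 genes with over 8000 bases 47.5% were higher and 26.1% lower, with a median of 0.16. The classes between followed in order, with medians of -0.11, -0.07, 0.03 and 0.07, and the median of all tested genes was -0.02. Within a passage, the median of the 3302 genes over 4000 bases exceeded that of the 2364 genes up to 1000 bases by 0.25 ± 0.09 log2 units (SD over 12 passages), from 0.14 at passage 5 to 0.37 at passage 1, and was above 0 in 12 of 12. The same difference was 0.16 ± 0.14 after NaCl (11 of 12 above 0) and 0.06 ± 0.13 after urea (8 of 12); all of these share the control libraries. Scaling by library totals only shifted all classes together, to -0.5 for the shortest and -0.07 for the longest, so the direction of the longest class against 0 rests on the scaling, while the order of the classes does not. RNA quality was not measured in the deposited table, and its part in this difference was not tested.

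**Figure D4:**
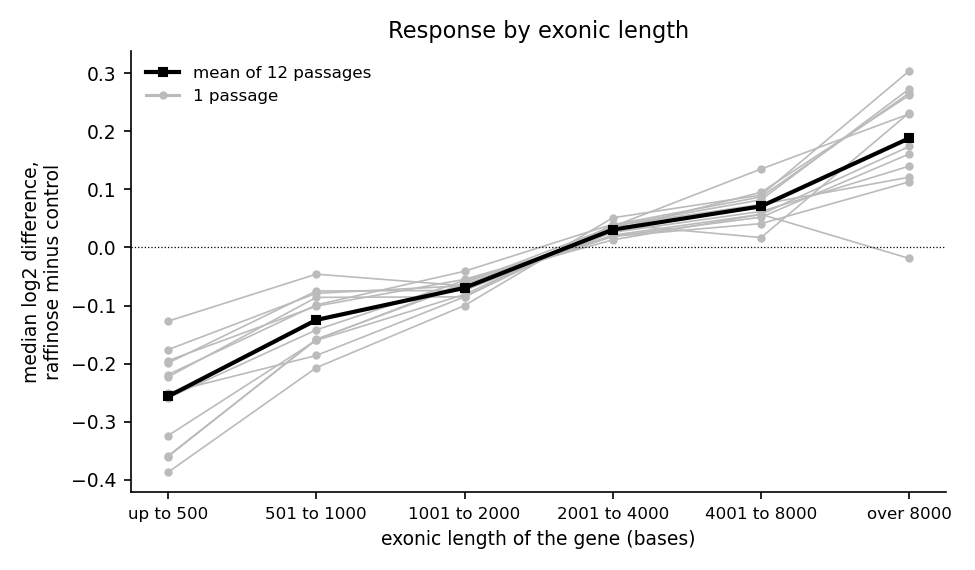
Median log2 difference, raffinose minus control, of the tested genes in 6 classes of exonic length, in bases; grey lines are the 12 passages and the black line is their mean. The mean line rises from left to right, and the passages go from medians between -0.39 and -0.13 in the shortest class to between -0.02 and 0.3 in the longest.

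The order by length was also seen within classes of level. A class set on the 24 libraries compared would take in genes through the group where they are high, so the classes were set, after the data were seen, on the mean CPM of the 12 urea libraries, which are outside the comparison. At 100 to 1000 CPM, genes over 4000 bases had a median log2 fold change of 0.14 (542 of 1112 higher, 338 lower), and genes up to 1000 bases had -0.43 (23 of 119 higher, 75 lower). At 10 to 100 CPM the medians were -0.01 and -0.21, and at 1 to 10 CPM they were 0.05 and -0.19. Scaled by library totals only, the longer genes had -0.09, -0.24 and -0.18 and the shorter ones -0.66, -0.44 and -0.43, so the order held while no class of longer genes stayed above 0. Over genes of all lengths the medians of these 3 classes were 0.06, -0.05 and -0.10. By number of exon blocks, genes with over 20 had a median of 0.14 (805 of 1694 higher, 507 lower), and genes with 3 to 5 had -0.09 (779 of 2399 higher, 989 lower). Scaled by library totals only, these 2 medians were -0.09 and -0.32. The upward direction of the genes with over 20 blocks is then lost, while they stay above those with 3 to 5. With TMM the medians of the 6 classes, from 1 block upward, were -0.06, 0.02, -0.09, -0.05, -0.01 and 0.14, so they did not rise in order.

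Chromosomes differed little. The medians lay between -0.15 (chromosome 21, 219 genes) and 0.13 (chromosome 22, 140 genes, and the mitochondrial genome, 31 genes). Chromosome 14 had the largest share of genes that rose by at least 2-fold, 44 of 221 (19.9%), against 12.1% of all tested genes.

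Genes that lie next to each other often moved the same way. Of 12562 pairs of tested genes with no tested gene between them, both members were called in 7107, and 4133 of these (58.2%) had the same direction. The share was 69.7% for genes whose spans overlap, 64.3% for gaps under 1 kb and 55.2% for gaps over 100 kb. At gaps of 1 to 10 kb, 64.2% of the 360 head-to-head pairs, whose start sites face each other, moved the same way, against 57.3% of 787 pairs on the same strand and 53.3% of 540 tail-to-tail pairs. The correlations of the log2 fold changes at this distance were 0.27, 0.19 and 0.09 across all such pairs. Counting did not use strand, so reads from overlapping genes on opposite strands cannot be told apart, and the values for overlapping pairs are uncertain for that reason.

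**Figure D5:**
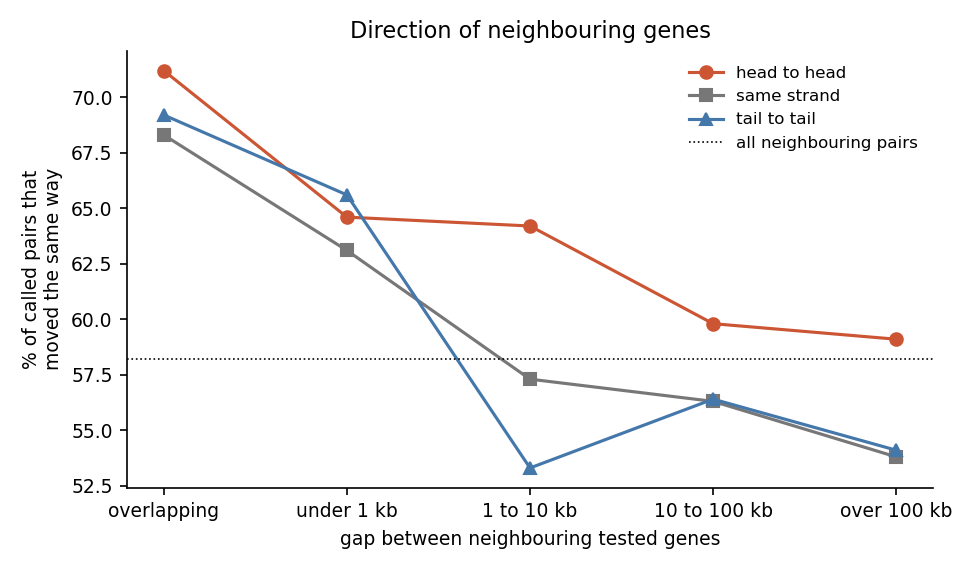
Percent of neighbouring pairs of called genes that moved the same way after raffinose, by the gap between the genes and by their orientation; the dotted line is the share over all neighbouring pairs, 58.2%. The head-to-head line stays above 59%, while the other two orientations fall below the dotted line at gaps of 1 kb and more.

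Consecutive genes called in 1 direction formed 24 stretches of at least 8 genes, 11 higher with 94 genes and 13 lower with 123 genes, beside a background of 36.7% of genes called higher and 38.2% lower. The longest was on chromosome 18 from 45793451 to 46473960, where 14 consecutive genes fell (median log2 fold change -1.37, from -2.7 to -0.21). It includes ENSCAFG00000022843, and its summed level went from 15696 to 7545 CPM. Most of that sum was ENSCAFG00000022843 alone, at 9390 CPM in control and 4240 CPM after raffinose. The median of the 14 genes was below 0 in each passage, between -1.87 and -0.85. The other solutes lowered this stretch too: NaCl lowered all 14 genes (median -1.44), and urea lowered 12 and raised 0 (median -0.76). On chromosome 23 from 11262504 to 12342106, 12 consecutive genes fell by less, with a median of -0.43. Among the stretches that rose, the highest median was on chromosome 25 from 7832887 to 9427363, where 8 genes went from a summed 213 to 3973 CPM (median 2.78, from 0.59 to 7.07). Urea raised 2 of these 8 and lowered 1. On chromosome 18 from 51658592 to 51848020, 9 genes within 189 kb rose with a median of 1.47, of which urea lowered 6 and raised 1. On chromosome 27 from 2120127 to 2827413, 9 genes fell with a median of -1.36, of which urea raised 5 and lowered 1. No chance level was computed for these stretches.

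Set against NaCl at the same osmolality, raffinose mostly moved genes further from control. The direct test called 1948 genes (15.4%), 1009 higher after raffinose (7.97%) and 939 lower (7.42%), and 3595 with passage as a replicate block. Of the 1009 genes higher after raffinose than after NaCl, 859 were also higher than control and 51 lower. Of the 939 lower, 791 were also lower than control and 71 higher. Since raffinose libraries enter both comparisons, the size was read from genes chosen on either side. Among the 1532 genes that rose by at least 2-fold after raffinose, the median log2 fold change was 1.64 after raffinose and 1.45 after NaCl, and 452 were called further from control after raffinose against 20 further after NaCl. Among the 1243 genes that rose by at least 2-fold after NaCl, a choice that favours NaCl, the medians were 1.86 and 1.66, and 279 were called further after raffinose against 34 further after NaCl. For falls after NaCl (991 genes) the medians were -1.57 after raffinose and -1.37 after NaCl, with 201 and 26 called further. Most of these differences were small: 14 of the 1948 genes passed against a minimum fold of 1.5. Scaled by library totals only, 628 genes were higher and 1542 lower after raffinose than after NaCl.

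The largest excess of raffinose over NaCl in CPM was again in ENSCAFG00000013762, at 15004 ± 4993 against 8832 ± 2938 CPM. It was higher after raffinose in 12 of 12 passages, with a log2 difference of 0.76 ± 0.21 (edgeR adjusted p = 0.00854). ENSCAFG00000008704 (chromosome 30, 6770135 to 6785062, plus strand, 22 exon blocks) came next. It had 370 to 1008 CPM in control, 1363 to 3596 after NaCl and 2630 to 7768 after raffinose, with medians of 696, 2412 and 4190. The raffinose and NaCl groups overlapped, but raffinose was higher in 12 of 12 passages, with a log2 difference of 0.90 ± 0.16 (edgeR adjusted p = 5.9e-05). After urea it had 549 ± 135 CPM.

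In the other direction, ENSCAFG00000008582 (chromosome 3, 24127134 to 24239146, minus strand, 15 exon blocks) had 228 to 680 CPM after raffinose, with a median of 334, and 318 to 1202 after NaCl, with a median of 823. Raffinose was lower in 12 of 12 passages, and the log2 difference was -0.79 ± 0.22 (edgeR adjusted p = 0.00903). NaCl left it near the control mean of 798 ± 292 CPM, at 750 ± 286 (log2 fold change -0.09 ± 0.22, adjusted p = 0.723), while against control raffinose lowered it by 0.88 ± 0.22 log2 units (adjusted p = 0.000323). ENSCAFG00000029384 (chromosome 7, 80950042 to 80974511, plus strand) had 105 to 689 CPM after raffinose and 240 to 4448 after NaCl, and was lower after raffinose in 9 of 12 passages, with a log2 difference of -1.38 ± 0.33 (edgeR adjusted p = 0.00269). The NaCl library of passage 13 stood alone at 4448 CPM. Without that library the NaCl mean fell from 928 ± 1135 to 608 ± 258 CPM, and without passage 13 the log2 difference was -0.74 ± 0.27 and did not pass (adjusted p = 0.0668). Its span also overlaps 4 other annotated genes.

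Against urea at the same osmolality 9614 genes differed (76%), 4761 higher after raffinose (37.6%) and 4853 lower (38.4%), with 1709 and 1307 by at least 2-fold. Of the 2814 genes changed by at least 2-fold against control, 2578 (91.6%) also differed from urea in the same direction; raffinose libraries enter both comparisons. The 1532 genes that rose had a median log2 fold change of 0.11 after urea, and the 1282 that fell one of -0.18. Scaled by library totals only, 38.8% of the genes called between raffinose and urea were higher after raffinose in place of 49.5%.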

How the data were processed

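The file the authors deposited holds unnormalised counts of reads for each gene and library. CASAVA, HISAT2 2.0.5 and featureCounts 1.5.1 are named in the submitters' processing notes. Per the file headers, exons were summed by gene without strand, on the CanFam3.1 annotation of Ensembl. Libraries came from polyadenylated RNA, per the labels. Columns for passage 10 have a further number whose meaning is not given. Exons that overlap were merged into exon blocks.

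The test was edgeR 4.0.16 (quasi-likelihood, R 4.3.3): filterByExpr kept 12654 of 32704 genes, libraries were scaled by TMM, and all 48 were fitted with a term for group, with Benjamini-Hochberg adjustment. SEs are the log2 fold change over the square root of F, and the common coefficient of variation was 17%. Log2 CPM used a prior count of 0.5. Same-passage pairs share the labelled passage. Their deviations from the group means correlated at 0.36 on average (0.16 to 0.55), and in 10 of 12 the highest correlation was with the own passage number. The 132 other pairs averaged -0.03, a value largely set by taking deviations from group means. Scripts were tested on simulated data. Alternatives were RLE, library totals only, other filters, passage terms, DESeq2 1.42.0, limma 3.58.1, a minimum fold and each passage left out.

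Genes named have the 2 largest rises or falls in mean CPM among called genes with the same direction in all 12 pairs, or, against NaCl, among called genes with a mean of at least 5 CPM. Groupings and naming rules were chosen with earlier results of these data known. Lists by gene symbol could not be applied.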

Additional observations from a re-analysis of the deposited data

How the results depend on the processing

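Each passage left out in turn gave 9238 to 9418 called genes for raffinose against control, 2766 to 2851 at 2-fold or more, 1529 to 1881 against NaCl, 9366 to 9553 against urea and 0 for the term with passage. With passage as a replicate block 10071 genes were called against control in place of 9482. Against NaCl the block gave 3595 genes in place of 1948, and 4052 with only these 2 groups; it moved no other count of called genes by over 1.5 times. Against a minimum fold of 1.5 the counts were 3969 against control, 14 against NaCl and 4152 against urea. Changes of at least 2-fold numbered 4946 with no filter on low counts and 1837 among genes with a mean of at least 5 CPM, which tests fewer genes, against 2814. The difference in library totals was -0.756 to 0.0563 M with a passage left out. The excess of 81.42 genes at 1 CPM did not pass without pairing (permutation test, p = 0.106), and at 5 CPM it was -337.2. The median SD over genes with a mean of at least 5 CPM was 0.201 in control and 0.236 after raffinose. Classes of level, an alternative chosen after seeing the data, gave other medians than when set on the 24 libraries compared: 1.48 by the control level and 1.01 by the urea level for under 1 CPM, where that choice gave 0.19; 0.03 and 0.06 at 100 to 1000 CPM, where it gave 0.17; and -0.12 and 0.02 over 1000 CPM, where it gave 0.30. Classes that share libraries with the comparison take in genes by the change itself. The filter on low counts used the libraries of all groups. A gene under 1 CPM in control or urea can therefore be tested through a higher level in another group. The medians of 1.48 and 1.01 are thus not free of the choice of genes, by the urea level either, and no conclusion is drawn from them. None of the 4 genes named against NaCl passed when a fold above 1.5 was required. The cause of these shifts was not tested. Depth limits the genes near 1 CPM most, at totals down to 6.08 M reads in control and 6.6 M after raffinose.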
